A study of Homo sapiens with 4 samples.

Results

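Forkhead box (FOX) genes encode transcription factors that share a DNA-binding domain, the forkhead or winged-helix domain. The family was measured here in TE-1, an established cell line of esophageal squamous cell carcinoma (ESCC), with and without silencing of its member FOXM1. Its genes were taken as the probe sets to which the array's annotation gives exactly 1 gene symbol, where that symbol is FOX followed by a letter from A to S and a number. This gave 33 genes of the 14232 genes measured under 1 symbol. Only FOXK2 had 2 such probe sets, of which the one with the higher mean of the 4 arrays was used. A further 6 probe sets carry a forkhead symbol together with other symbols, and no forkhead gene is named from them.

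The 2 groups differed in the siRNA that TE-1 cells received by lipofection, siRNA against FOXM1 (siFOXM1) or scrambled control siRNA (SCR), with 2 replicates each. The cells of both groups were grown in RPMI medium with serum, were transfected in 2 rounds and were harvested a day after the second. Total RNA was profiled on 4 Affymetrix arrays. The values are log2 expression after robust multi-array average (RMA), so a difference of 1 is a doubling. The comparison addresses which genes differ in expression once FOXM1 is silenced. TE-1 is a single line, and the measurements describe a transient knockdown in culture.

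Forkhead proteins bind short sites in DNA, and different members activate or repress genes of cell division, metabolism, survival and development. FOXM1 is made in dividing cells and activates genes of the G2 phase and mitosis, together with the MuvB complex and B-MYB. The FOXO members act in the opposite sense, since they slow division and are kept out of the nucleus when AKT phosphorylates them. FOXA members open closed chromatin during the development of endoderm, the layer that also forms the esophagus.

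The median of each array lay between 7.54 and 7.63, and pairs of arrays correlated with r of 0.984 to 0.992 across probe sets. The closest pairs had the same replicate number, with r of 0.9918 for the arrays numbered 2 and 0.9876 for those numbered 1. Within a group, r was 0.9870 for the siFOXM1 arrays and 0.9852 for the SCR arrays. Of 11 markers listed for squamous epithelium, 7 were measured under 1 symbol, and KRT5, KRT6A, KRT17 and TP63 were not. The 7 include EPCAM and CDH1, which mark epithelium more generally. Of the 7, 6 were at or above the median level of all probe sets (7.58), and DSC3 was below it. The 6 were SFN, EPCAM, CDH1, KRT14, DSG3 and PERP. Over all genes, 7681 of 14232 were at or above that level. At or above that level were 1 of 6 fibroblast markers, 1 of 4 leukocyte markers and 0 of 4 endothelial markers. In a bulk sample, fewer cells that express a gene and less of its RNA per cell cannot be told apart.

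FOXM1 was the only forkhead gene at least 1.5-fold apart between the groups. Its log2 expression was 8.28 and 8.06 in the siFOXM1 arrays and 10.55 and 9.75 in the SCR arrays. Both siFOXM1 arrays were below both SCR arrays, and both were still above the median level of all probe sets. The mean was 8.17 ± 0.16 in siFOXM1 and 10.15 ± 0.56 in SCR (SD, n = 2 in each), a difference of -1.98 with a standard error of 0.30, or 3.95-fold. The 95% interval of the difference in limma ran from -2.75 to -1.21, which is 2.32-fold to 6.72-fold. Setting single arrays against each other gave 2.77-fold to 5.62-fold. The arrays numbered 1 were 4.82-fold apart and those numbered 2 were 3.23-fold apart, and the SCR arrays differed from each other by 0.80 while the siFOXM1 arrays differed by 0.22.

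Among the 14232 genes, FOXM1 had the largest difference in either direction and ranked 6 by the unadjusted p of limma. Its adjusted p was 1 in limma, where 0 of 22011 probe sets (0%) passed an adjusted p of 0.05 and 680 (3.09%) had an unadjusted p under 0.05. With 2 arrays against 2, an exact permutation test of FOXM1 gave a two-sided p of 0.333, the smallest this design allows. Neither the labels nor the methods say that the replicates came from separate cultures, and these p-values cover only the spread between the arrays, which may be technical.

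**Figure D1:**
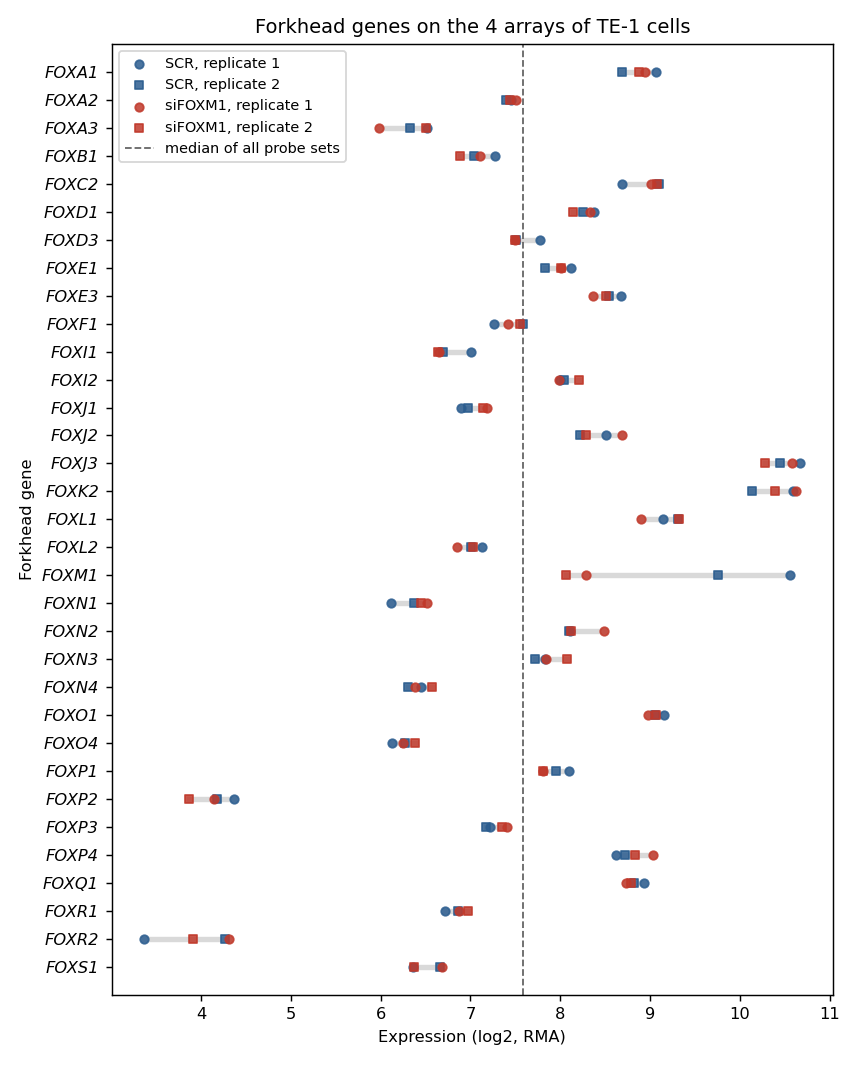
Log2 expression (x axis, RMA) of the 33 forkhead genes (y axis) on each of the 4 arrays, with siFOXM1 in red, SCR in blue, circles for replicate 1 and squares for replicate 2; the grey bar spans the 4 arrays and the dashed line is the median of all probe sets, 7.58. FOXM1 spans 8.06 to 10.55 with the red points to the left, the widest span of the 33 genes, and FOXR2 spans 3.37 to 4.31.

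The other 32 forkhead genes were all less than 1.5-fold apart, the criterion of the study for these arrays. Their differences, siFOXM1 minus SCR, ran from -0.27 for FOXP2 (1.20-fold) to 0.29 for FOXR2 (1.22-fold). Of all genes, 64 (0.45%) were at least 1.5-fold lower in siFOXM1, FOXM1 included, and 80 (0.562%) were at least 1.5-fold higher. The median difference of the 32 genes was 0.04 beside 0.003 over all genes, and the median size of a difference was 0.136 beside 0.096. None of the 32 passed limma, with an adjusted p of 1 for each, and 0 of 32 had an unadjusted p under 0.05, beside 261 of all genes (1.83%).

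The limma intervals were computed gene by gene from 2 arrays per group, in a fit without the replicate number. The replicates may not be separate cultures, so variation from culture to culture may be missing from these intervals. For 18 of the 32 genes the whole 95% interval lay within 1.5-fold in both directions. That does not establish that these 18 genes were unchanged. For the other 14 it reached past 1.5-fold, so a difference of that size lay inside the interval. Apart from FOXR2, the bounds of the 32 intervals stayed between -0.75 and 0.69, which is at most 1.68-fold. The interval of FOXR2 reached 1.17, or 2.25-fold.

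**Figure D2:**
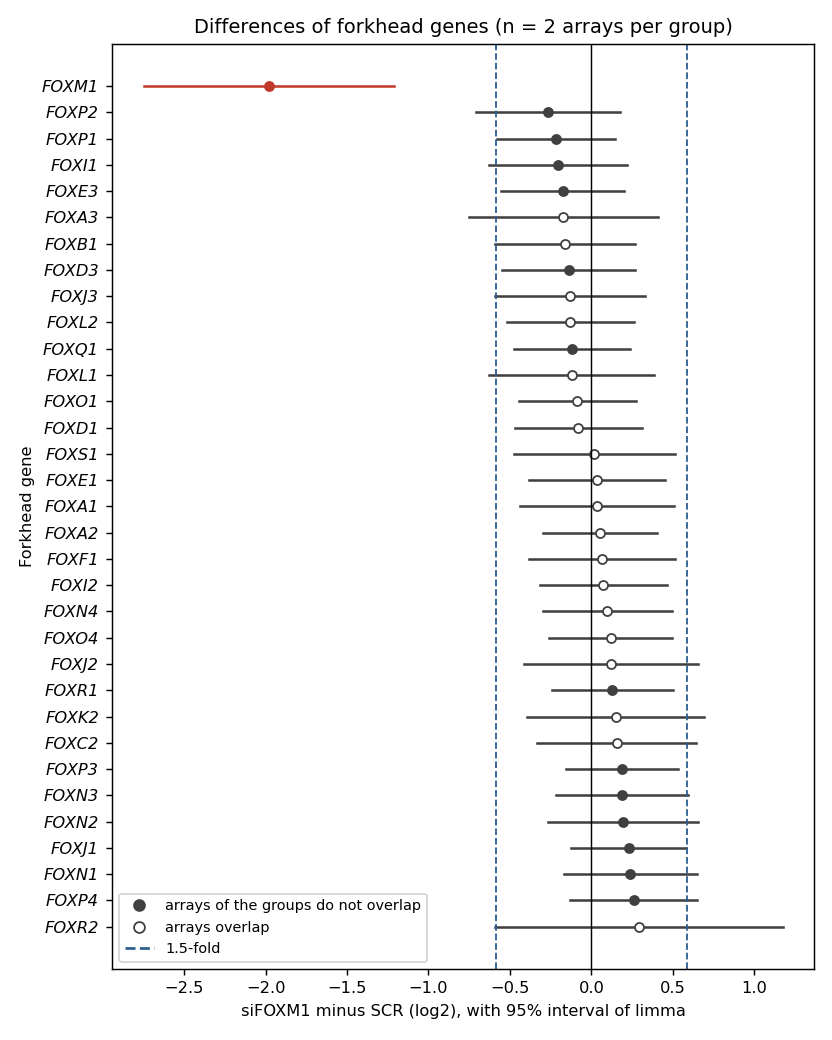
Difference in log2 expression, siFOXM1 minus SCR (x axis), with its 95% limma interval for each of the 33 forkhead genes (y axis, ordered by the difference), for 2 arrays per group; filled points mark genes whose groups do not overlap and dashed lines mark 1.5-fold. FOXM1 lies at -1.98 with an interval from -2.75 to -1.21, and the other 32 points lie between -0.27 and 0.29.

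In 13 of the 32 genes the arrays of the groups did not overlap, 7 with both siFOXM1 arrays higher and 6 with both lower. Some of the gaps were narrow. The nearest arrays read 7.500 in siFOXM1 and 7.501 in SCR for FOXD3, and 8.115 and 8.113 for FOXN2. Over all genes, both siFOXM1 arrays were higher in 13.5% and lower in 13.8%, so the share without overlap was 27.3% beside 40.6% of the 32. Within both replicate numbers, 20 of the 32 differences kept the same sign, beside 57.0% of all genes.

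FOXO1, a factor of the insulin response that AKT inhibits, had log2 expression of 8.98 and 9.07 in siFOXM1 and 9.16 and 9.06 in SCR. The groups overlapped, with the SCR replicate 1 array the highest of the 4. The difference was -0.09 with a standard error of 0.14, and its 95% interval, -0.45 to 0.27, stayed within 1.5-fold. FOXO4, a second member of this class, was below the median level of all probe sets in each array, with a difference of 0.12.

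Of the FOXK members, FOXK2 was measured; it represses genes of autophagy. It had log2 expression of 10.62 and 10.39 in siFOXM1 and 10.59 and 10.13 in SCR. The SCR replicate 2 array was the lowest and the groups overlapped, with a difference of 0.15. The second probe set of FOXK2, below the median level, read 6.91 and 6.42 in siFOXM1 and 6.33 and 6.26 in SCR. There both siFOXM1 arrays were higher, by 0.37 on average, which is 1.29-fold with a standard error of 0.21, while the probe set used for the gene overlapped between the groups.

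All 4 FOXN members had positive differences, from 0.10 for FOXN4 to 0.24 for FOXN1. Positive differences were also found in 19 of the 32 forkhead genes and in 7258 of all 14232 genes. None of the 4 had an unadjusted limma p under 0.05. FOXN3, a repressor that was first described as a checkpoint suppressor, had log2 expression of 7.85 and 8.08 in siFOXM1 and 7.83 and 7.71 in SCR. Both siFOXM1 arrays were higher, but replicate 1 of siFOXM1 exceeded replicate 1 of SCR by only 0.01, and the mean difference was 0.19. FOXN2 had log2 expression of 8.49 and 8.11 in siFOXM1 and 8.11 and 8.10 in SCR. Here replicate 1 of siFOXM1 stood above the other 3 arrays, which were nearly level, and the mean difference was 0.19. FOXN1, a factor of the thymic epithelium and of keratinocytes, was below the median level in each array and also did not overlap, whereas FOXN4, a factor of the retina in mice, overlapped.

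The FOXP members are mostly repressors that pair with each other. None of the 4 overlapped between the groups, with 2 higher and 2 lower in siFOXM1, and 27.3% of all genes did not overlap either. FOXP4, which acts in the development of the foregut and lung in mice, had log2 expression of 9.03 and 8.83 in siFOXM1 and 8.62 and 8.72 in SCR. Both siFOXM1 arrays were higher, by 0.26 on average (1.20-fold, standard error 0.15). FOXP1, a repressor in B cell and lung development, had log2 expression of 7.81 and 7.80 in siFOXM1 and 8.09 and 7.95 in SCR. Both siFOXM1 arrays were lower and close to each other, with a difference of -0.22 (1.16-fold, standard error 0.14). FOXP2, known for its role in speech, had a difference of -0.27 and FOXP3, the factor of regulatory T cells, had a difference of 0.19, both at levels below the median.

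FOXJ2 had log2 expression of 8.69 and 8.28 in siFOXM1 and 8.50 and 8.22 in SCR. The groups overlapped, and in each group replicate 1 was higher than replicate 2, by more than the difference of 0.12 between the groups. FOXJ3, which acts in muscle fibres and male germ cells in mice, had log2 expression of 10.58 and 10.28 in siFOXM1 and 10.67 and 10.45 in SCR. Replicate 1 was again the higher in each group, the groups overlapped and the difference was -0.13. FOXJ1, the factor of motile cilia, was below the median level, with both siFOXM1 arrays higher and a difference of 0.23.

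FOXA1, a pioneer factor that opens chromatin, had log2 expression of 8.94 and 8.88 in siFOXM1 and 9.07 and 8.68 in SCR. Both siFOXM1 arrays lay between the SCR arrays, and the difference was 0.03. Its relatives FOXA2 and FOXA3, factors of endoderm and liver, were below the median level with differences of 0.05 and -0.17. FOXC2, a factor of lymphatic vessels and mesenchyme, had log2 expression of 9.02 and 9.08 in siFOXM1 and 8.69 and 9.10 in SCR. The SCR replicate 1 array was the lowest, the other 3 arrays were close together, and the difference was 0.16.

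Both siFOXM1 arrays were lower in another 3 genes at or above the median level. FOXQ1, a factor of hair development in mice, had log2 expression of 8.73 and 8.78 in siFOXM1 and 8.93 and 8.82 in SCR, a difference of -0.12. FOXE3, a factor of the lens, had 8.36 and 8.51 in siFOXM1 and 8.67 and 8.54 in SCR, a difference of -0.18. FOXD3, a factor of the neural crest, had 7.50 and 7.49 in siFOXM1 and 7.77 and 7.50 in SCR, a difference of -0.14. In each of the 3 genes the SCR replicate 1 array was the highest and SCR replicate 2 lay closer to the siFOXM1 arrays.

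The remaining 4 genes at or above the median level were FOXD1, FOXE1, FOXI2 and FOXL1, with array values from 7.83 to 9.32 and overlapping groups. Their differences were -0.08, 0.03, 0.07 and -0.12 in that order. FOXD1 is a factor of the kidney stroma and FOXE1 of the thyroid, and FOXL1 marks mesenchymal cells of the gut.

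In all, 15 of the 33 forkhead genes were below the median level in the group where they were higher, beside 6551 of all 14232 genes. FOXP2 and FOXR2 had array values from 3.37 to 4.37. The other 13 were FOXA2, FOXA3, FOXB1, FOXF1, FOXI1, FOXJ1, FOXL2, FOXN1, FOXN4, FOXO4, FOXP3, FOXR1 and FOXS1, with array values from 5.98 to 7.58. Of the 15, 4 had both siFOXM1 arrays higher (FOXJ1, FOXN1, FOXP3 and FOXR1) and 2 had both lower (FOXI1 and FOXP2). FOXR2 had log2 expression of 4.31 and 3.91 in siFOXM1 and 3.37 and 4.27 in SCR. Its groups overlapped, and its difference was 0.74 without SCR replicate 2 and -0.16 without SCR replicate 1.

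**Figure D3:**
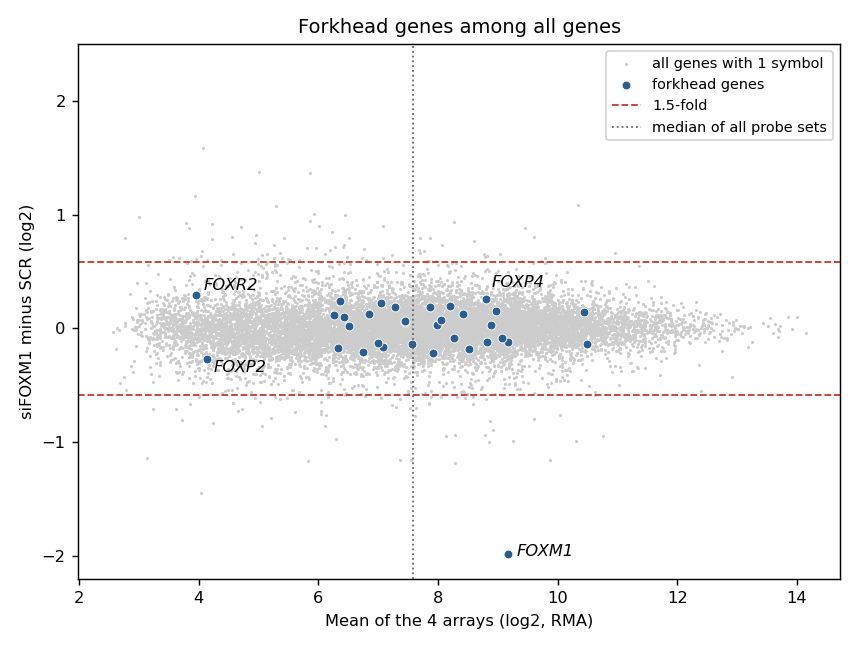
Difference in log2 expression, siFOXM1 minus SCR (y axis), against the mean log2 expression of the 4 arrays (x axis) for the 14232 genes, with the 33 forkhead genes in blue, 1.5-fold as dashed lines and the median of all probe sets as a dotted line. FOXM1 stands at -1.98, the farthest point from 0, and the other 32 forkhead genes lie inside the dashed lines.

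The 6 probe sets that share a forkhead symbol with other symbols had differences from -0.27 to 0.06, and the groups overlapped in each of them.

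Forkhead proteins can bind the sequence GTAAACA, which reads TGTTTAC on the opposite strand. RefSeq promoters of GRCh38.p14, from 250 bases before to 50 bases after the start, were at hand for 24 of the 33 genes. The promoters of FOXM1, FOXA2, FOXC2, FOXE3, FOXF1, FOXJ1, FOXL1, FOXN2 and FOXS1 were not searched. The motif, on either strand, was in 2 of the 32 promoters of the 24 genes (6.25%) and in 3.42% of the 35116 promoters in the table. These matches were in FOXP1, in 1 of its 6 promoters, and in FOXO4. Both read as follows, 5′ to 3′ on the strand of the gene, with the motif in capitals.
FOXP1: aactatgttatTGTTTACtttaccatacac
FOXO4: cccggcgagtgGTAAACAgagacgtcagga
The FOXP1 stretch is at chr3:71245252-71245281 on the minus strand, and its motif, on the opposite strand of the gene, begins 193 bases before the start. The FOXO4 stretch is at chrX:71095863-71095892 on the plus strand, and its motif begins 23 bases after the start. As given above, FOXP1 differed by -0.22 without overlap and FOXO4 by 0.12 with overlap. A match to the letters is a description of the sequence and no measurement of binding.

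Genes around FOXM1 and the FOXO factors were read from 4 lists, which held 113 genes, 93 of them measured under 1 symbol. The kinases, cyclins and partners that regulate FOXM1 or work with it were measured in 19 of 23 cases. Of these, 0 were 1.5-fold apart in either direction and the median difference was -0.005. CCNB1, the cyclin of entry into mitosis, and CCNE1, a cyclin of the G1/S transition, had the lowest differences, -0.57 and -0.21. CDK6, a kinase of the G1 phase, and RB1, the retinoblastoma protein, had the highest, 0.38 and 0.23. RB1 was below the median level of all probe sets and its groups overlapped.

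Of 30 known targets of FOXM1, 26 were measured, 1 was at least 1.5-fold lower and 0 were higher. The exception was CDKN3, a phosphatase of cyclin-dependent kinases, with log2 expression of 8.85 and 8.68 in siFOXM1 and 10.42 and 9.09 in SCR. Both siFOXM1 arrays were lower, by 0.99 on average (difference -0.99, adjusted p = 1 in limma), and the SCR arrays were farther from each other than the group means were. CCNB1, which is on this list too, had 9.61 and 9.03 in siFOXM1 and 10.43 and 9.34 in SCR, with overlapping groups. BIRC5, which encodes survivin, and TOP2A, a topoisomerase of dividing cells, had the highest differences of the list, both 0.22 with overlapping groups. The list's median was -0.03, and 14 of the 26 differences were negative, beside 6974 of all 14232 genes.

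The replicate numbers separated the FOXM1 targets more than the siRNA did. Averaged over the groups, replicate 1 was higher than replicate 2 by a median of 0.47 over the 26 targets, beside 0.10 over all genes. Over all genes at or above the median level, where 25 of the 26 targets lay, that median was 0.16. The median level of the targets was 9.77 and 9.30 in siFOXM1 replicates 1 and 2 and 10.21 and 9.36 in SCR replicates 1 and 2. FOXM1 itself was higher in replicate 1 by 0.51 on the same measure, whereas the other 32 forkhead genes had a median of 0.02. Without SCR replicate 2, 5 targets were at least 1.5-fold lower and the median was -0.32, beside -0.071 over all genes. Without SCR replicate 1, 0 were lower and the median was 0.23, beside 0.069 over all genes. The share of all genes past 1.5-fold in these runs was not counted. These 2 runs set both siFOXM1 replicates against 1 SCR replicate, so they include the difference between replicate numbers. Within replicate 1 the median of siFOXM1 minus SCR was -0.11, and within replicate 2 it was 0.02. What set the replicates apart was not tested.

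Of 31 regulators of the FOXO factors, 22 were measured and 0 were 1.5-fold apart, with a median of 0.04. MAPK8, the kinase JNK1, and IKBKB, a kinase of the NF-kappaB pathway, had the lowest differences, -0.42 and -0.22. IKBKB was below the median level of all probe sets and its groups overlapped. SETD7, a lysine methyltransferase, and YWHAZ, a 14-3-3 protein that holds FOXO proteins in the cytoplasm, had the highest, 0.49 and 0.30. Of 36 FOXO targets, 32 were measured and 0 were 1.5-fold apart, with a median of -0.005. CDKN1A, which encodes the cell cycle inhibitor p21, and CCNG2, a cyclin of quiescent cells, had the lowest differences, -0.51 and -0.43. CCNG2 was below the median level. KLF6, a zinc finger factor, and CAT, which encodes catalase, had the highest, 0.47 and 0.21. The groups overlapped for CAT. Over the 4 lists, 0 genes passed an adjusted p of 0.05 in limma, and 4 of 93 (MAPK8, SETD7, CDKN1A and KLF6) had an unadjusted p under 0.05, beside 1.83% of all genes.

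**Figure D4:**
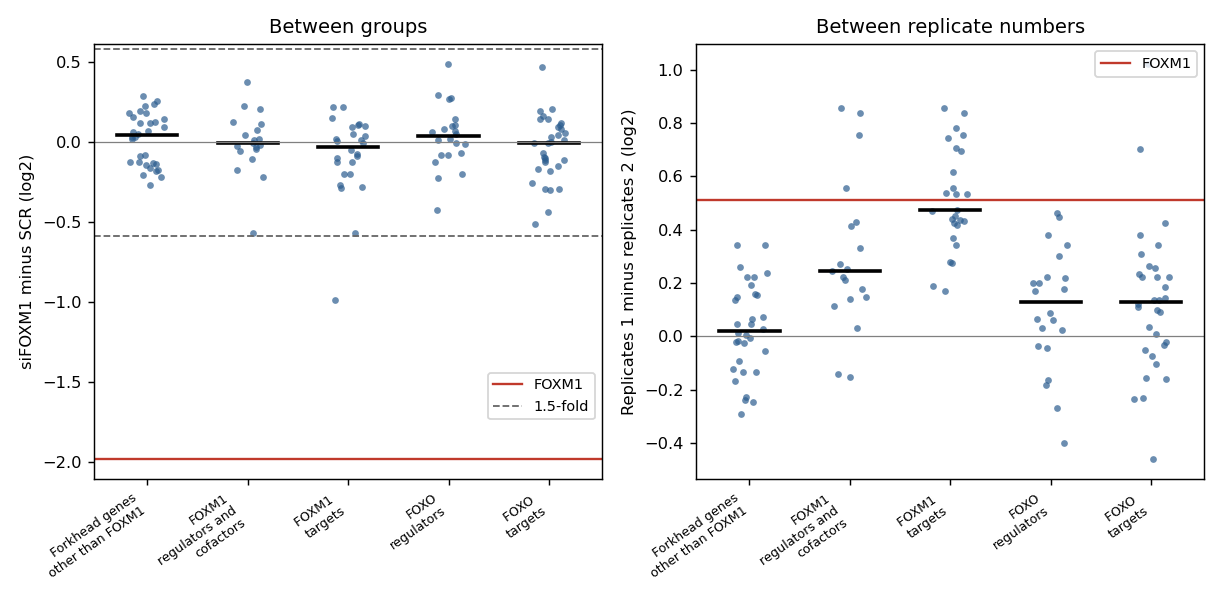
Points are genes, in the 32 forkhead genes other than FOXM1 and the 4 lists (x axis): on the left the difference in log2 expression between siFOXM1 and SCR (y axis), on the right that between replicates 1 and replicates 2 (y axis), with black bars for medians, the red line for FOXM1 and dashed lines for 1.5-fold. On the left only CDKN3 (-0.99) passes a dashed line, and on the right the median of the FOXM1 targets is 0.47.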

How the data were processed

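The deposited table holds the authors' log2 values for 22011 probe sets on each of 4 arrays. Per the submitters' processing notes they were made with RMA in Affymetrix Expression Console and refer to hg18; versions, and the set of arrays normalized as 1 batch, are not given in the sources. RMA makes the distributions of arrays alike and gives no absolute amount, so genes were not ranked by level, and each was only placed above or below the median of all probe sets as a coarse guide. Precision is limited by the number of arrays.

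Gene names came from the platform's annotation: 14432 had 1 symbol, 2408 several and 5171 none. All 33 forkhead symbols matched RefSeq. Groups and replicate numbers came from the sample labels. Differences are the mean of the 2 siFOXM1 values minus that of the 2 SCR values. The test was that of limma (version 3.58.1, R 4.3.3) on every probe set, without the replicate number, with Benjamini-Hochberg adjustment over all 22011. The moderated test had 4.87 degrees of freedom. The calculation was tested on simulated data in which the noise of the arrays was independent. That test therefore did not cover a difference shared by arrays with the same replicate number.

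A gene counts as at or above the median level where its mean in the higher group reached 7.58, the median over all probe sets. Values in every array were given for FOXM1, for forkhead genes at or above that level whose groups did not overlap, and for the FOXO, FOXK, FOXN, FOXJ, FOXP, FOXA and FOXC members there. FOXR2, the second probe set of FOXK2, CDKN3 and CCNB1 were added after their values were seen. From each list the 2 largest increases and decreases were named, with any member 1.5-fold apart. The members and lists were chosen with earlier results of these data known. Alternatives were centring, quantile normalization, a replicate block, a level filter, the average of a gene's probe sets, limma with an intensity trend and robust estimation, rows with several symbols, linear means, a 2-fold criterion and leaving out each array. Protein sequences were not used here.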

Additional observations from a re-analysis of the deposited data

How the results depend on the processing

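FOXM1 kept its direction and stayed past 1.5-fold under every alternative run. Its difference was -1.58 to -2.38 with 1 array left out, -2.001 after quantile normalization and -2.03 from linear means, and its adjusted p in limma ranged from 0.41 to 1. With the replicate block, the difference was -1.98 and the adjusted p 0.67. Deviations of arrays with the same number correlated by 0.34 over all probe sets and by 0.02 over the forkhead genes, and with only 2 pairs the numbers were not taken to pair the arrays. The block changed no call of the forkhead genes.

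The count of forkhead genes at least 1.5-fold higher, 0, was 0 to 1 with 1 array left out (FOXR2 without SCR replicate 2). The count without overlap, 14 with FOXM1, was 8 with the filter on the median level, since fewer genes were counted, and 21 to 27 with 1 array left out, since 3 arrays overlap less often. The median difference of the 33 genes, 0.034, was -0.040 to 0.018 with 1 array left out, and all genes moved as well, from -0.071 to 0.069. With 1 array left out the difference ran from -0.16 to 0.23 for FOXA1, -0.051 to 0.362 for FOXC2, -0.079 to 0.325 for FOXJ2, -0.284 to 0.017 for FOXJ3 and -0.080 to 0.377 for FOXK2. The sign of these 5 thus depended on the arrays used, and leaving out 1 array also puts the replicate numbers off balance. Within both replicate numbers FOXJ2 (0.18 and 0.06), FOXJ3 (-0.09 and -0.17) and FOXK2 (0.03 and 0.26) kept their sign. FOXA1 (-0.13 and 0.20) and FOXC2 (0.33 and -0.02) did not. Members whose values were not given in every array were not checked in this way. FOXM1 targets at least 1.5-fold lower, 1, were 2 from linear means, 0 at 2-fold and 0 to 5 with 1 array left out. FOXO targets at least 1.5-fold lower, 0, reached 3 without SCR replicate 2, where the medians of the FOXO regulators and targets were -0.06 and -0.11. The 0 regulators and cofactors of FOXM1 that were 1.5-fold lower became 1 from linear means and 0 to 1 with 1 array left out (1 without siFOXM1 replicate 1 or SCR replicate 2), and the 0 FOXO targets that were 1.5-fold higher became 1 without siFOXM1 replicate 2. Shares of all genes past 1.5-fold were not counted under these alternatives. The causes were not tested.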
